A study of Saccharomyces cerevisiae with 50 samples.

Results

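The autophagy-related (ATG) genes of budding yeast were examined in strains that lack 1 ribosomal protein gene and in strains with more of the transcription factor Gcn4. The 31 genes were taken by name from the ATG family between ATG1 and ATG40, with VPS30 in the place of ATG6. They do not hold every ATG gene in that range, since ATG26, ATG36 and ATG38 were kept for a wider pathway list. Counts of the family below are counts over these 31 only. The 31 genes were found by their systematic names, a rule that uses no measured value. They were 31 of 5743 genes in the mRNA counts of the deletion strains, 31 of 5666 in their ribosome profiling (Ribo-seq) counts, 31 of 5742 in the tables of the strains with the ADH1 promoter and 31 of 5739 in the table of the plasmid strains. All 31 passed the count filter in every comparison. The 50 samples formed 17 groups, all of haploid MATa yeast of the BY4741 background, a laboratory strain without working his3, leu2 and ura3 genes. In Δrpl7a and Δrpl9a, which the study describes as long-lived, and in Δrpl6a, Δrpl15b and Δrps27b, which it describes as short-lived, a kanMX4 cassette replaced 1 ribosomal protein gene. Each was compared with the wild type of the same background, with 3 libraries of each kind, or 2 in the case of Δrpl6a Ribo-seq. These strains and this wild type are listed without met15, though Δrps27b had reads of it, as given below. In PADH1-GCN4 the promoter of ADH1, with a kanMX4 cassette, replaced the promoter and upstream untranslated sequence of the chromosomal GCN4 gene. S242L carried the same cassette and promoter with a GCN4 mutated in the part that binds DNA. Both carried a working MET15 gene, as did their own wild type, into which the study had put it back and which is called wild type (met) here. Wild type (met) is listed without the kanMX4 cassette. PGAL-GST-GCN4 carried GCN4 fused to GST behind a galactose promoter on a high-copy plasmid with URA3, and its wild type, called wild type (ura3), carried a different high-copy URA3 plasmid. Only mRNA was measured in these last 5 groups, in 3 libraries each. The study grew strains to mid-log phase in rich glucose medium unless it states otherwise. It calls the plasmid of PGAL-GST-GCN4 galactose-inducible. The sources used here do not state the medium in which the plasmid strains were grown, so rich glucose medium cannot be assumed for them.

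Autophagy is the route by which a yeast cell wraps cytoplasm, or a chosen organelle, in a membrane sac called the autophagosome and delivers it to the vacuole for breakdown. The Atg1 kinase and its scaffold start the process, Atg9 vesicles and a lipid kinase build the membrane, and a pair of ubiquitin-like conjugation systems attach Atg8 to it. Cargo receptors join what is to be degraded to Atg8, and vacuolar enzymes and transporters break down and release the contents. Autophagy is low in rich medium and is induced when nitrogen or amino acids run short, a condition under which Gcn4, the activator of amino acid biosynthesis genes, is also made.

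The deposited values were counts of reads per gene, with library totals of 5709195 to 12696200 for mRNA and 8092039 to 15437373 for Ribo-seq of the deletion strains, 14061819 to 25642672 for the ADH1 promoter strains and 10722664 to 13693442 for the plasmid strains. The 31 genes together received 3168 to 31588 counts per library, or 0.0373% to 0.264% of the total. The lowest count of any of them in a library was 2, so counting error alone is large for the least abundant members. The deleted genes averaged 0.545 to 3.90 CPM (TMM-scaled counts, relative to library size) in the mRNA of their own strains, against 60.1 to 2216 CPM in wild type. Some marker genes had reads that the genotypes as listed do not name. The strain list names URA3 on the plasmid of PGAL-GST-GCN4 and does not say whether that plasmid holds other markers. Δrps27b had 44.6 ± 6.40 CPM of MET17 mRNA, the gene also called MET15, against 0 in wild type, and PGAL-GST-GCN4 had 4802 ± 629 CPM of LEU2 against 2.67 ± 0.793 CPM in wild type (ura3) (SD, n = 3 each). In bulk cultures such as these, fewer cells of a kind and less RNA per cell cannot be told apart, and p-values measure the spread between these replicate libraries.

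In growing wild-type cells most members were weakly expressed. Per kilobase of coding sequence their median level was 17.8 CPM of mRNA and 11.5 CPM of footprints, the mRNA fragments that ribosomes protect, against medians of 48.5 and 32.7 CPM per kilobase over 5194 genes with at least 30 counts in each assay. On the mRNA scale 28 of the 31 lay below the median of all genes. The highest was ATG27, for a membrane protein that moves with Atg9, at 122 ± 5.01 CPM per kilobase (SD, n = 3). ATG5, whose product is joined to Atg12, and ATG8 followed at 65.5 ± 1.12 and 58.7 ± 13.0 CPM per kilobase, values that do not differ beyond their spread. The lowest were ATG34 at 4.84 ± 1.18, ATG10 at 4.14 ± 1.01 and ATG39 at 1.28 ± 0.561 CPM per kilobase, of which ATG34 and ATG10 overlapped in their spread. Ribosome density, taken as footprints over mRNA, was ordinary for the family. Its median was 0.705 over the 30 members compared and 0.700 over all genes. It ranged widely, with 2.40 for the mitophagy gene ATG33, against 0.142 for ATG23 and 0.155 for ATG14.

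Short stretches upstream of some of these genes are shown because Gcn4 is one of the factors varied here and because Ume6 is a known repressor of ATG8 in rich medium. The windows searched ran from 250 bases before the start codon to 50 bases from it in the RefSeq copy of genome assembly R64, on both strands. The Gcn4 core TGACTC lay in 6 of the 31 windows (19.4%), against 479 of 6007 windows of all genes (7.97%). The capitals mark the core, read on the strand of the gene, where GAGTCA is the same core on the opposite strand.
ATG13 (chrXVI:907203-907228, plus strand): tgaatagcatGAGTCAtggttgccga
ATG29 (chrXVI:237138-237163, plus strand): agttttgtatTGACTCaaatactttc
ATG21 (chrXVI:361692-361717, plus strand): gtctttttccTGACTCtaagcggtgg
ATG8 (chrII:80946-80971, minus strand): gtttaagttaGAGTCAtgtaatgcta
ATG4 (chrXIV:227125-227150, plus strand): tgcttatattTGACTCtgcgattaaa
The core of ATG13 begins 5 bases before the start codon and shares its last letter with it, and the others begin 170 to 235 bases before theirs. The sixth match, in ATG10, lies inside the coding sequence. Of the 4 members with the largest rise in PGAL-GST-GCN4, ATG13 has the letters of the core in its window and ATG1, ATG18 and ATG2 do not.
The Ume6 core GGCGGC lay in 2 member windows (6.45%), against 309 of all windows (5.14%). Capitals mark the core in both.
ATG8 (chrII:80849-80874, minus strand): ggttattttcGGCGGCggcaaaaata
ATG19 (chrXV:168674-168699, plus strand): aggtaattgcGGCGGCacttgcttca
A second match in ATG8 overlaps the one shown. The stress element AGGGG lay in 8 member windows (25.8%), against 1299 of all windows (21.6%), and the GATA element GATAAG, bound by the nitrogen-responsive activators, in 10 (32.3%), against 883 (14.7%). A match is a description of the letters and not a sign of binding.

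In Δrpl7a, the mRNA of the family stood higher than in wild type. By the thresholds of the study, an adjusted p below 0.01 and a change of more than 2-fold, 14 of the 31 members rose and 0 fell, where 18.7% of all genes tested passed and 12.3% passed upward. The median log2 fold change of the members was 0.98, and that of all genes 0.03. At an adjusted p below 0.05 with no fold minimum 20 rose and 1 fell, against 59.1% of all genes in either direction. For 23 members, every Δrpl7a library lay above every wild-type library, as it did for 32.3% of all genes tested.

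**Figure D1:**
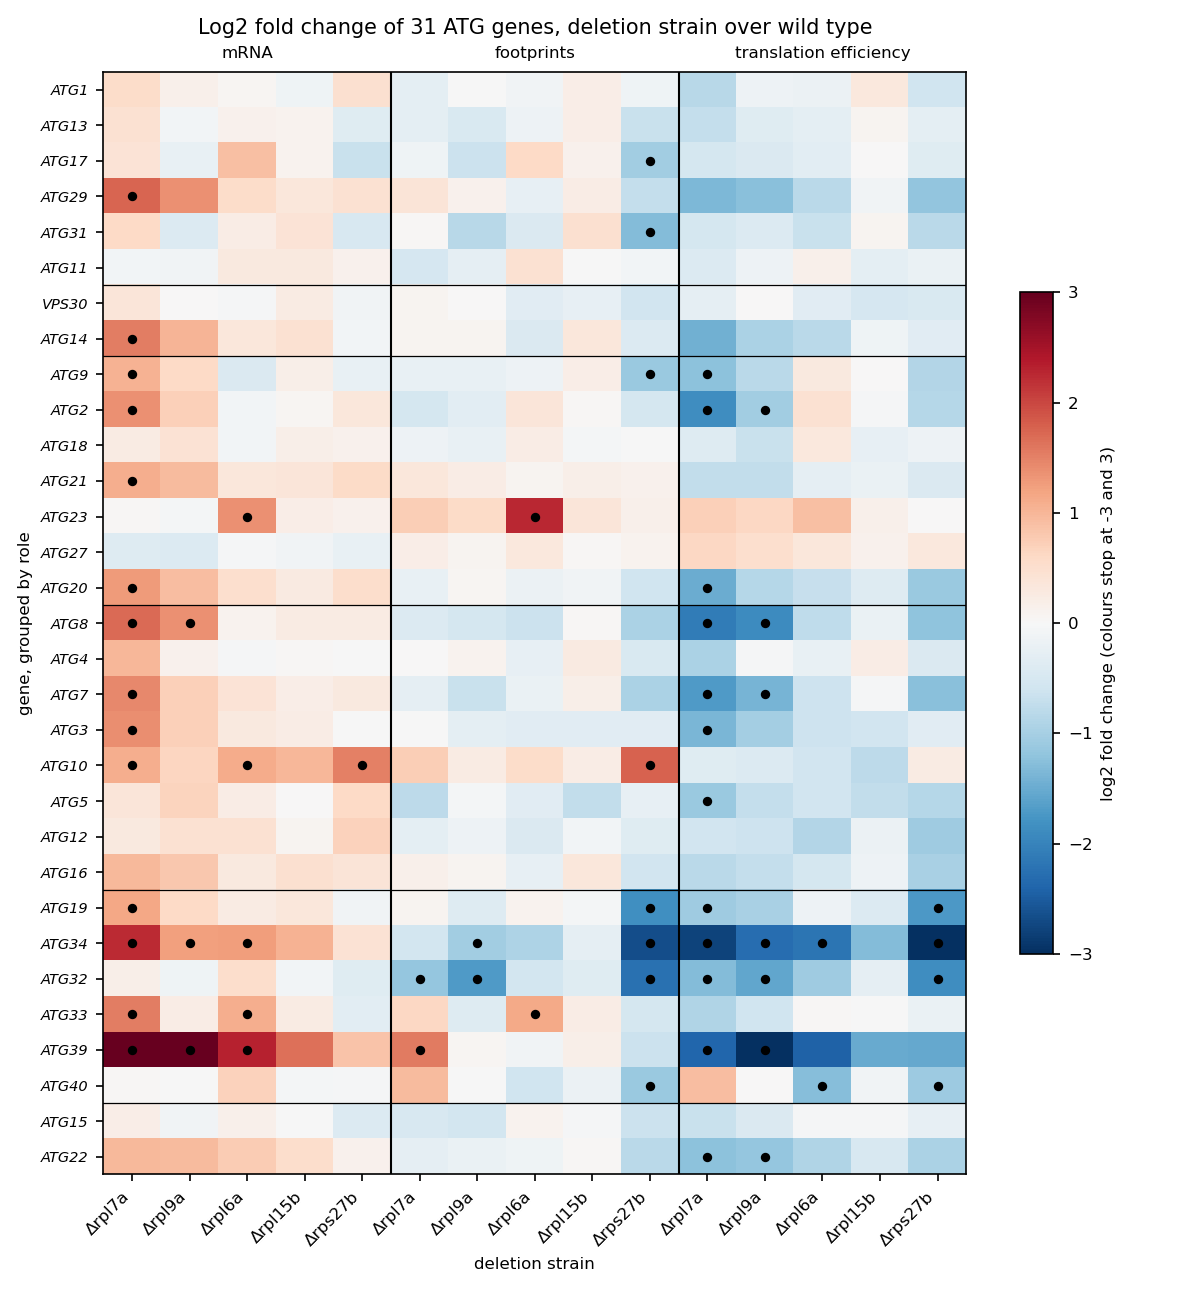
Log2 fold changes against wild type of the 31 autophagy genes (rows, grouped by role) in the 5 deletion strains, for mRNA, footprints and translation efficiency (columns). The colour scale stops at 3 in either direction and black dots mark calls at an adjusted p below 0.01 and more than 2-fold, of which Δrpl7a mRNA holds 14.

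The largest rises were in cargo receptors. ATG39 (YLR312C), the receptor for the nuclear envelope, had 33.5, 23.7 and 13.1 CPM in Δrpl7a, against 2.20, 1.54 and 0.855 CPM in wild type. Every Δrpl7a library was far above every wild-type library, and the log2 fold change was 3.93 (SE 0.53, adjusted p = 1.38e-05), or 15.3-fold. ATG34 (YOL083W), the receptor that brings α-mannosidase to the vacuole under starvation, had 32.4, 30.2 and 22.7 CPM in Δrpl7a, against 5.18, 7.69 and 5.13 CPM in wild type. Again the groups lay well apart (log2 2.25, SE 0.28, adjusted p = 6.42e-06). ATG33, needed for the removal of mitochondria, rose 2.92-fold (log2 1.54, adjusted p = 1.27e-05) and ATG19, the receptor of the constitutive pathway to the vacuole, rose by 1.16 on the log2 scale (adjusted p = 1.54e-05). The other receptors behaved differently. ATG32 (YIL146C), the receptor for mitochondria, had 16.4, 16.8 and 15.5 CPM in Δrpl7a, against 13.3, 14.5 and 15.4 CPM in wild type, only just apart, and ATG40 (YOR152C), the receptor for the endoplasmic reticulum, had 21.3, 23.1 and 21.6 CPM, against 22.0, 24.3 and 18.1 CPM in wild type, where the groups overlapped. In all, 4 of the 6 receptors and selective factors rose, with a median log2 fold change of 1.35.

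Among the genes of Atg8 and its conjugation, 4 of 8 rose. ATG8 (YBL078C) itself had 86.9, 71.7 and 43.4 CPM in Δrpl7a, against 25.4, 20.7 and 16.2 CPM in wild type, without overlap (log2 1.69, SE 0.30, adjusted p = 0.000164). Its activating enzyme ATG7 rose by 1.45 (adjusted p = 0.00107), its conjugating enzyme ATG3 by 1.39 (adjusted p = 0.00131) and ATG10, the conjugating enzyme of Atg12, by 1.09 (adjusted p = 0.00124), all on the log2 scale. ATG4 (YNL223W), the protease that trims and recycles Atg8, fell just short of the fold threshold at a log2 fold change of 0.99 (adjusted p = 0.000899).

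In the group of Atg9 vesicles, lipid transfer and lipid binding, 4 of 7 rose. ATG2 (YNL242W), the lipid transfer protein, had 82.3, 74.0 and 44.7 CPM in Δrpl7a, against 21.8, 25.6 and 29.8 CPM in wild type, again without overlap (log2 1.37, SE 0.22, adjusted p = 6.03e-05). The sorting nexin ATG20 rose by 1.27 (adjusted p = 0.000694), the lipid binding protein ATG21 by 1.09 (adjusted p = 6.63e-05) and the scramblase ATG9 by 1.04 (adjusted p = 0.0011), on the log2 scale. ATG9 had 37.5, 34.1 and 24.8 CPM in Δrpl7a, all above the 15.2, 15.7 and 15.8 CPM of wild type. ATG27 was the exception, with a log2 fold change of -0.40 (adjusted p = 0.00293), below the fold threshold. ATG14, the subunit that directs the lipid kinase to autophagy, rose by 1.53 (adjusted p = 0.00216), while its partner VPS30 had a log2 fold change of 0.37.

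In the initiating kinase complex 1 of 6 was called, with a median of 0.51, and of the 2 vacuolar members, ATG15 and ATG22, 0 were, with a median of 0.59. ATG29 (YPL166W), of its scaffold, had 56.0, 51.4 and 17.6 CPM in Δrpl7a, against 14.9, 13.5 and 8.55 CPM in wild type (log2 1.75, SE 0.46, adjusted p = 0.00388). The groups did not overlap, yet replicate 3 of Δrpl7a was near the wild-type range. ATG1 (YGL180W), the kinase, had 51.3, 48.1 and 31.8 CPM in Δrpl7a, against 26.4, 32.8 and 29.5 CPM in wild type, where the groups overlapped, and its log2 fold change of 0.56 (adjusted p = 0.00987) lay below the fold threshold, as did that of its regulator ATG13 at 0.46.

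Replicate 3 stood apart in the mRNA of both long-lived strains. It was the lowest of the 3 libraries for 27 of 31 members in Δrpl7a and for 27 in Δrpl9a, against 19 in wild type. The median shift of the members from the wild-type mean was 1.14, 1.00 and 0.40 (log2, with 0.5 CPM added) in Δrpl7a libraries 1, 2 and 3. Without any mRNA library numbered 3, a setting added after the data were seen, 14 members were again called in Δrpl7a, with ATG4 in place of ATG10. The 8 general stress genes listed for comparison moved the same way. All 8 were called higher in Δrpl7a, with a median log2 fold change of 3.79, and their summed level was 11584, 10691 and 4354 CPM in Δrpl7a, against 705 to 1179 CPM in wild type, with none of them at 0. Their part in the result was not tested. With 1 library left out, 5 of the 14 calls were lost in some settings. ATG29 was lost without replicate 1 (1.45) or 2 (1.55) of Δrpl7a or replicate 2 (1.82) or 3 (1.54) of wild type, ATG14 without Δrpl7a replicate 1 (1.19) or wild-type replicate 3 (1.33), and ATG10 without wild-type replicate 3 (0.96). ATG9 was lost without replicate 1 (0.89) or 2 (0.97) of Δrpl7a or wild-type replicate 1 (0.99), and ATG21 without Δrpl7a replicate 1 (1.00) or 2 (0.96), values being log2 fold changes.

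In Δrpl9a, the other long-lived strain, 3 members rose and 0 fell by the same thresholds, where 7.96% of all genes passed and 6.78% passed upward. The median of the members was 0.60 and that of all genes 0.00. Without the fold minimum 13 rose and 1 fell, against 32.0% of all genes. The 3 were ATG39, ATG8 and ATG34. ATG39 had 17.7, 14.7 and 12.4 CPM in Δrpl9a, all far above the 2.20, 1.54 and 0.855 CPM of wild type (log2 3.29, SE 0.54, adjusted p = 0.000264). ATG8 had 68.0, 60.7 and 31.6 CPM in Δrpl9a, also without overlap with the 16.2 to 25.4 CPM of wild type (log2 1.36, SE 0.30, adjusted p = 0.0024). ATG34 had 15.9, 17.7 and 8.64 CPM in Δrpl9a, against 5.18, 7.69 and 5.13 CPM in wild type, with replicate 3 close to the highest wild-type library (log2 1.23, SE 0.28, adjusted p = 0.00378). ATG29 had a larger log2 fold change, 1.38, with a wide spread (41.4, 40.6 and 14.2 CPM in Δrpl9a) and an adjusted p of 0.0308. ATG32 showed no rise in this strain, at 14.0, 12.04 and 13.4 CPM in Δrpl9a, against 13.3, 14.5 and 15.4 CPM in wild type.

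The count in Δrpl9a depended on single libraries. It was 7 without Δrpl9a replicate 3, 1 without Δrpl9a replicate 2 or wild-type replicate 3, and 7 without any mRNA library numbered 3, when ATG29, ATG14, ATG21 and ATG20 were called as well. With the replicate number as a block it was 4, with ATG29 added. The shares of all genes called in these settings are not given, so the larger counts are not read as a stronger result. ATG8 and ATG34 each lost the call without Δrpl9a replicate 1 (1.15 and 1.13) or 2 (1.26 and 1.03) or wild-type replicate 3 (1.21 and 1.13), ATG8 also without wild-type replicate 2 (1.36) and ATG34 without wild-type replicate 1 (1.12). The stress genes were all called higher in Δrpl9a too, with a median of 2.78 and a summed level of 2299 to 6433 CPM, against 705 to 1179 CPM in wild type. Their part in the result was not tested. Δrpl7a and Δrpl9a were compared with the same wild-type libraries, so their lists are not independent.

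**Figure D2:**
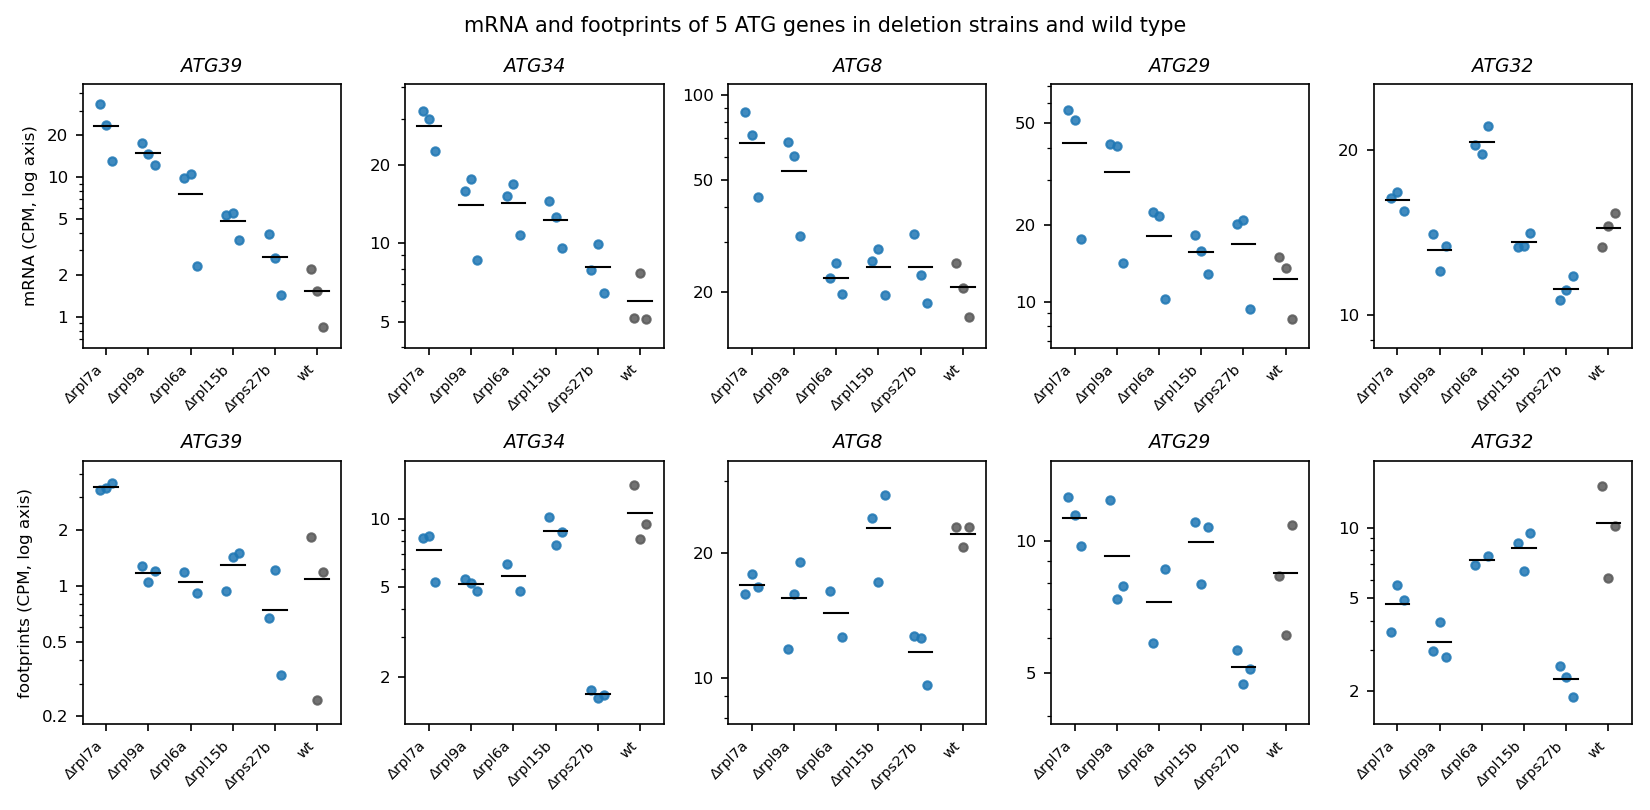
CPM on a log axis of ATG39, ATG34, ATG8, ATG29 and ATG32 in each library of the 5 deletion strains and, at the right in grey, wild type, for mRNA (top) and footprints (bottom). Dots are libraries and bars are means. ATG39 mRNA lay at 12.4 to 33.5 CPM in Δrpl7a and Δrpl9a, above the highest wild-type library at 2.20 CPM.

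The short-lived strains gave smaller changes of mRNA. In Δrpl6a, 5 members rose and 0 fell, where 5.05% of all genes passed and 3.99% passed upward, and the median was 0.29 against 0.01 for all genes. A looser call with no fold minimum took in 10 that rose and 0 that fell, against 22.4% of all genes. ATG23 (YLR431C), which moves with Atg9, had 62.6, 64.2 and 60.1 CPM in Δrpl6a, against 25.6, 22.0 and 24.9 CPM in wild type, far apart (log2 1.36, SE 0.15, adjusted p = 6.69e-06). The others were ATG39 (log2 2.30, adjusted p = 0.00851), ATG34 (1.25, adjusted p = 0.00481), ATG10 (1.12, adjusted p = 0.00332) and ATG33 (1.10, adjusted p = 0.0011). ATG39 had 9.89, 10.6 and 2.31 CPM in Δrpl6a, the last of them next to the highest wild-type library at 2.20 CPM. ATG8, in contrast, had 22.5, 25.2 and 19.7 CPM in Δrpl6a, within the range of wild type. ATG23 alone kept its call whichever library was left out. ATG39 was lost without any 1 wild-type library (1.99 to 2.67) or Δrpl6a replicate 1 (2.03) or 2 (1.99), ATG34 without wild-type replicate 1 (1.16) or 3 (1.15) or Δrpl6a replicate 1 (1.20) or 2 (1.12), ATG10 without wild-type replicate 2 (1.06) or 3 (0.99) or Δrpl6a replicate 1 (1.05) or 3 (1.01), and ATG33 without wild-type replicate 2 (0.99).

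In Δrpl15b 0 members were called by edgeR and 0 by DESeq2, where 0.492% of all genes passed, and 7 members had an unadjusted p below 0.05, all of them higher. The share of all genes at that unadjusted threshold is not given, so this count is not read as a result about the members. The looser call took in 1 member, against 2.13% of all genes. It was ATG10 (log2 1.00, adjusted p = 0.0341), with 4.88, 4.09 and 3.66 CPM in Δrpl15b, against 2.67, 1.88 and 1.71 CPM in wild type. ATG34 had 14.6, 12.6 and 9.63 CPM in Δrpl15b, above all the wild-type libraries at 5.13 to 7.69 CPM, and missed the threshold (log2 1.03, adjusted p = 0.0745). The median of the members was 0.23, against 0 for all genes to 2 decimals. The replicate numbers paired these mRNA libraries, and with the number as a block 2 members were called in Δrpl15b, ATG34 at 1.03 (adjusted p = 0.0011) and ATG39 at 1.70 (adjusted p = 0.00713).

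In Δrps27b 1 member was called, where 5.54% of all genes passed. It was ATG10, with 6.23, 5.27 and 6.33 CPM in Δrps27b, against 2.67, 1.88 and 1.71 CPM in wild type, clearly apart (log2 1.52, SE 0.24, adjusted p = 0.000168). At the looser threshold 4 rose and 2 fell, against 25.3% of all genes, and the median was 0.12 against 0.02. ATG1 had 43.2, 36.7 and 42.7 CPM in Δrps27b, above the wild-type libraries at 26.4 to 32.8 CPM, whereas ATG34 had 7.93, 9.98 and 6.47 CPM, against 5.18, 7.69 and 5.13 CPM in wild type, where the groups overlapped. Chromosome XI, which holds no member, stood higher as a whole in Δrps27b. Its median log2 fold change was 0.95 in mRNA (302 genes) and 0.90 in footprints (300 genes). The shares of all genes called in Δrps27b, here and below, include the genes of this chromosome.

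The long-lived strains were set against the short-lived strains directly, as the mean of both against the mean of the other 3. Higher mRNA in the long-lived strains was called for 4 members and lower mRNA for 0, where 8.51% of all genes passed and 7.03% passed upward. The median difference of the members was 0.48 and that of all genes 0.00. At the looser threshold 17 were higher and 4 lower, against 57.2% of all genes. ATG8 ranged over 31.6 to 86.9 CPM in the 6 long-lived libraries, with a mean of 60.4, against 18.3 to 32.2 CPM in the 9 short-lived libraries, with a mean of 23.8. The ranges met only at the lowest Δrpl9a library, replicate 3 (log2 1.33, SE 0.18, adjusted p = 1.15e-05). ATG39 ranged over 12.4 to 33.5 CPM in the long-lived libraries, entirely above the 1.44 to 10.6 CPM of the short-lived ones (log2 2.00, SE 0.27, adjusted p = 1.14e-05). ATG29 and ATG14 were also higher, by 1.12 (adjusted p = 0.00262) and 1.03 (adjusted p = 0.000992) on the log2 scale, with ranges that overlapped, since ATG29 lay at 14.2 to 56.0 CPM in long-lived libraries, against 9.35 to 22.5 CPM in short-lived ones. These last calls were fragile. ATG29 was lost without replicate 1 (0.96) or 2 (1.01) of Δrpl7a, replicate 1 of Δrpl9a (1.00), or replicate 3 of Δrpl6a (0.99) or Δrps27b (0.99). ATG14 was lost with the replicate block and without replicate 1 (0.86) or 2 (0.97) of Δrpl7a, 1 (0.95) or 2 (0.94) of Δrpl9a, 3 of Δrpl6a (0.93) or Δrpl15b (0.99), or 2 (1.00) or 3 (0.95) of Δrps27b.

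Few of the mRNA changes appeared in footprints, the measure of how many ribosomes occupy the coding sequence. In Δrpl7a 1 member rose and 1 fell, where 5.84% of all genes passed, and the median was -0.12 against -0.02 for all genes. At the looser threshold 5 rose and 5 fell, against 42.4% of all genes. Of the 14 members with called mRNA, 1 (7.14%) was also called higher in footprints, and among all genes 116 of 647 were (17.9%). ATG8 had 15.9, 17.8 and 16.6 CPM of footprints in Δrpl7a, all below the 23.1, 20.7 and 23.1 CPM of wild type, although its mRNA was higher in every library. ATG34 had 8.27, 8.42 and 5.29 CPM in Δrpl7a, against 14.1, 8.20 and 9.55 CPM in wild type, where the groups overlapped. ATG2 had 18.3, 18.4 and 22.4 CPM in Δrpl7a, below the 30.95, 27.8 and 26.0 CPM of wild type.

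The member that rose was ATG39, with 3.27, 3.33 and 3.55 CPM in Δrpl7a, against 1.82, 0.245 and 1.19 CPM in wild type (log2 1.56, SE 0.45, adjusted p = 0.00889). The wild-type libraries held only 21, 2 and 14 counts of it, so this fold is poorly measured, and the call was lost without any 1 of the 3 Δrpl7a libraries (1.53 to 1.59) or wild-type replicate 2 (1.17) or 3 (1.59), and with the replicate block, which left 1 member called. The member that fell was ATG32, with 3.57, 5.67 and 4.90 CPM in Δrpl7a, against 15.1, 6.12 and 10.2 CPM in wild type (log2 -1.15, SE 0.27, adjusted p = 0.00207). Replicate 1 of wild type was the highest of these, and the call was lost without it (-0.80) or without Δrpl7a replicate 1 (-0.999). In ATG40 and ATG23 every Δrpl7a library had more footprints than every wild-type library while mRNA overlapped, and both stayed under the fold threshold. ATG40 had 20.1, 16.3 and 18.2 CPM in Δrpl7a, against 9.02, 8.56 and 10.4 CPM in wild type (log2 0.96, adjusted p = 0.000151). ATG23 had 7.55, 5.42 and 4.58 CPM in Δrpl7a, against 3.55, 2.94 and 3.84 CPM in wild type (log2 0.74, adjusted p = 0.0335).

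In Δrpl9a 2 members fell and 0 rose, where 3.44% of all genes passed, and the median was -0.21 against -0.01. Without the fold minimum 9 fell and 0 rose, against 32.4% of all genes. ATG32 had 2.98, 3.94 and 2.81 CPM of footprints in Δrpl9a, below every wild-type library at 6.12 to 15.1 CPM (log2 -1.70, SE 0.28, adjusted p = 0.000123). ATG34 had 5.42, 5.21 and 4.82 CPM in Δrpl9a, below the 8.20 to 14.1 CPM of wild type (log2 -1.05, SE 0.23, adjusted p = 0.00146), while its mRNA had risen. The call of ATG34 was lost without wild-type replicate 1 (-0.79). ATG39, at 9.77-fold more mRNA than wild type, had 1.28, 1.06 and 1.20 CPM of footprints in Δrpl9a, within the wild-type range of 0.245 to 1.82 CPM.

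In Δrpl6a 2 members rose and 0 fell, where 2.92% of all genes passed. ATG23 had 13.5 and 20.02 CPM of footprints in the 2 Δrpl6a libraries, against 3.55, 2.94 and 3.84 CPM in wild type (log2 2.26, SE 0.28, adjusted p = 4.11e-06). ATG33 had 58.1 and 57.8 CPM, against 27.9, 26.5 and 25.1 CPM in wild type (log2 1.13, SE 0.13, adjusted p = 2.23e-06). Both were well above wild type, and both had also risen in mRNA. The median of all 31 was -0.16, against -0.02 for all genes, and with no fold minimum 5 rose and 2 fell, against 17.8% of all genes. In Δrpl15b 0 members were called by edgeR or DESeq2, where 1.39% of all genes passed, 3 had an unadjusted p below 0.05, all lower, and 0 passed with no fold minimum, against 7.39% of all genes. The share of all genes at the unadjusted threshold is not given, so that count is not read as a result. The median of the members in Δrpl15b was 0.05.

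The largest changes of footprints were in Δrps27b, a strain whose mRNA of these genes had changed little. There 7 members fell and 1 rose, where 8.99% of all genes passed and 5.45% passed downward, and the median was -0.59 against -0.02 for all genes. Without the fold minimum 17 fell and 1 rose, against 49.1% of all genes, and for 19 members every Δrps27b library lay below every wild-type library, as it did for 27.2% of all genes. ATG34 had 1.75, 1.62 and 1.67 CPM of footprints in Δrps27b, against 14.1, 8.20 and 9.55 CPM in wild type (log2 -2.66, SE 0.28, adjusted p = 1.95e-07). ATG32 had 2.55, 2.30 and 1.89 CPM in Δrps27b, against 15.1, 6.12 and 10.2 CPM in wild type (log2 -2.24, SE 0.32, adjusted p = 6.92e-06). ATG19 had 9.94, 10.6 and 8.90 CPM in Δrps27b, against 43.8, 35.1 and 26.4 CPM in wild type (log2 -1.84, SE 0.18, adjusted p = 4.02e-08). All 3 are cargo receptors, and in each the groups were far apart. ATG40 fell by 1.12 on the log2 scale, so that 4 of the 6 receptors and selective factors were called lower, and all 6 had negative values, from -2.66 to -0.52. Outside the receptors, the scaffold subunits ATG31 (-1.31, adjusted p = 0.00107) and ATG17 (-1.04, adjusted p = 7.74e-05) and ATG9 (-1.11, adjusted p = 0.000187) also fell. ATG9 had 6.72, 6.50 and 6.56 CPM of footprints in Δrps27b, against 16.9, 11.1 and 14.4 CPM in wild type, well apart. ATG1 had 19.7, 24.0 and 22.1 CPM in Δrps27b, within the 19.8 to 29.7 CPM of wild type but for 1 library just under it.

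The member that rose in Δrps27b was ATG10, as in mRNA, with 4.30, 4.33 and 4.34 CPM of footprints in Δrps27b, against 1.73, 0.245 and 1.62 CPM in wild type (log2 1.77, SE 0.47, adjusted p = 0.00362). Wild type held 20, 2 and 19 counts of it, and the call was lost without wild-type replicate 2 (1.35) or any 1 Δrps27b library (1.76 each). ATG17 lost its call without wild-type replicate 1 (-0.86) or Δrps27b replicate 1 (-0.98), and ATG9 without wild-type replicate 1 (-0.96). Footprints of MET17 averaged 96.9 CPM in Δrps27b, against 0.0578 CPM in wild type, so this strain differed from wild type in that marker too. The part in the result of the marker, and of the higher chromosome XI given above, was not tested. The stress genes had less footprint signal in Δrps27b as well, 349 to 377 CPM in sum, against 839 to 1087 CPM in wild type. Their part in the result was not tested. Between long-lived and short-lived strains 1 member differed in footprints, where 2.75% of all genes passed, with 7 higher and 4 lower without a fold minimum, against 45.8% of all genes. It was ATG40, at 7.95 to 20.1 CPM in the 6 long-lived libraries, against 3.93 to 9.92 CPM in the 8 short-lived ones (log2 1.10, SE 0.12, adjusted p = 2.77e-07). The ranges overlapped through Δrpl9a, whose libraries lay at 7.95 to 10.6 CPM, overlapping the 8.56 to 10.4 CPM of wild type. The call is therefore not a trait seen in both long-lived strains.

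Translation efficiency was the footprint difference minus the mRNA difference of the same gene. Before any test it was below that of wild type for 23 to 28 of the 31 members in each of the 5 strains. Over all genes tested, 47.5% to 51.1% had values above 0. The measure uses the libraries of both assays and is not independent of either. The study harvested and lysed cells differently for the 2 assays and does not say whether they shared cultures. In Δrpl7a the stress genes summed to 4354 to 11584 CPM in mRNA and 1104 to 1244 CPM in Ribo-seq. The part of assay or culture was not tested. In Δrpl7a 12 members fell and 0 rose, where 15.3% of all genes passed and 10.1% passed downward, and the median was -0.89 against -0.01 for all genes. With no fold minimum 20 fell and 2 rose, against 43.5% of all genes. ATG34 fell by 2.78 (SE 0.36, adjusted p = 1.17e-06), ATG8 by 2.09 (SE 0.37, adjusted p = 5.26e-05) and ATG2 by 1.87 (SE 0.27, adjusted p = 3.89e-06), on the log2 scale. In the libraries given above, ATG8 and ATG2 had more mRNA and fewer footprints than wild type, and ATG34 had more mRNA with footprints that overlapped wild type. ATG39 fell by 2.37 (SE 0.74) with an adjusted p of 0.00999, at the threshold, and ATG7, ATG20, ATG3, ATG32, ATG9, ATG22, ATG5 and ATG19 fell by 1.06 to 1.71. ATG22, which exports amino acids from the vacuole, fell by 1.22 while its mRNA had a log2 fold change of 0.98. The values above 0 were those of ATG40 (0.94), ATG23 (0.71) and ATG27 (0.61).

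**Figure D3:**
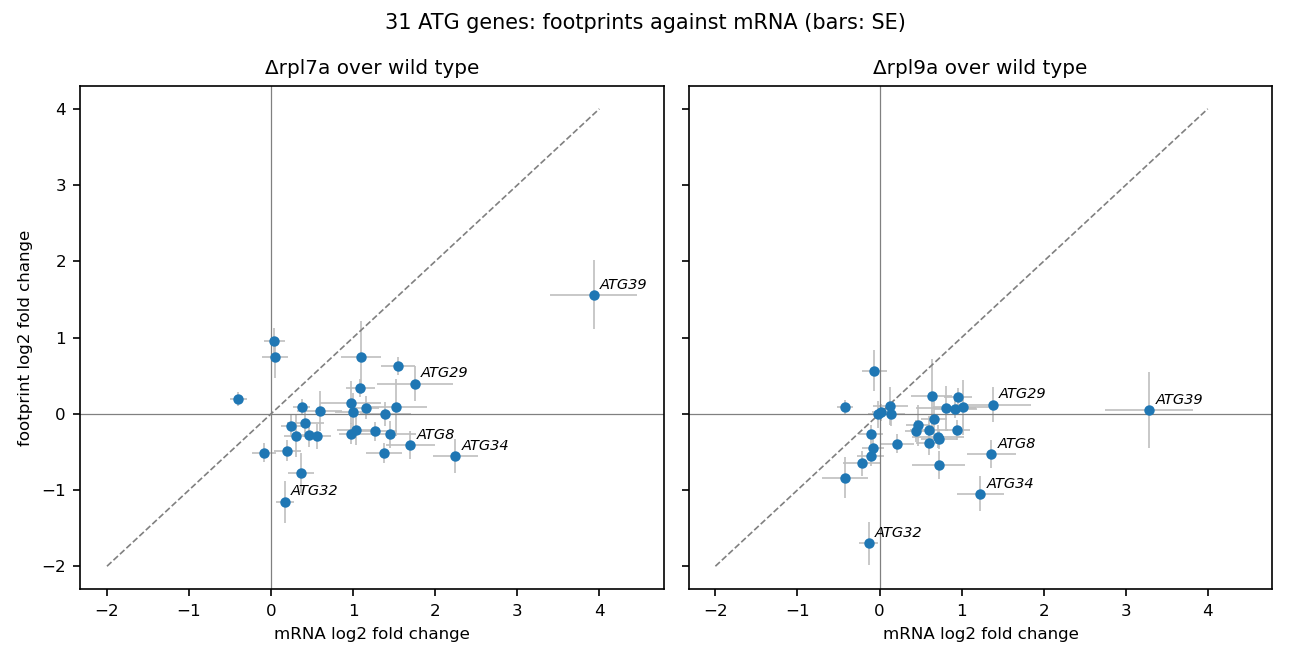
Log2 fold change of footprints (vertical) against that of mRNA (horizontal) for the 31 autophagy genes in Δrpl7a (left) and Δrpl9a (right), with bars of 1 standard error and a dashed line where both are equal. Points below the line have lower translation efficiency, as for ATG34 at 2.78 below it in Δrpl7a and 2.28 in Δrpl9a.

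In Δrpl9a 7 members fell and 0 rose, where 8.78% of all genes passed and 7.03% passed downward, with a median of -0.72 against -0.01. With no fold minimum 13 fell and 1 rose, against 29.7% of all genes. ATG39 fell by 3.25 (SE 0.77, adjusted p = 0.00212), ATG34 by 2.28 (SE 0.37, adjusted p = 4.47e-05), ATG8 by 1.89 (SE 0.37, adjusted p = 0.00034) and ATG32 by 1.56 (SE 0.29, adjusted p = 0.000256) on the log2 scale. ATG7, ATG22 and ATG2 fell by 1.05 to 1.39. In Δrps27b 4 members fell and 0 rose, where 6.02% of all genes passed and 4.44% passed downward, with a median of -0.82 against -0.02, and with no fold minimum 12 fell and 0 rose, against 21.9% of all genes. All 4 were receptors, ATG34 at -3.10 (SE 0.43, adjusted p = 1.23e-05), ATG32 at -1.87 (SE 0.32, adjusted p = 0.000153), ATG19 at -1.73 (SE 0.25, adjusted p = 1.69e-05) and ATG40 at -1.08 (SE 0.22, adjusted p = 0.000701). With the replicate block 8 members were called in Δrps27b, with ATG20, ATG8, ATG7 and ATG12 added, DESeq2 called 7, and 10 were called without the mRNA libraries numbered 3. Shares of all genes are not given for these 3 settings.

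In Δrpl6a 2 members fell and 0 rose, ATG34 at -2.19 (SE 0.40, adjusted p = 0.000706) and ATG40 at -1.28 (SE 0.22, adjusted p = 0.000415), where 2.39% of all genes passed. With no fold minimum 4 fell and 1 rose, against 10.6% of all genes, and the median was -0.54 against -0.02. In Δrpl15b 0 members were called by edgeR or DESeq2, where 0.207% of all genes passed, 4 had an unadjusted p below 0.05, all lower, and 0 passed without a fold minimum, against 0.414% of all genes. The share of all genes at the unadjusted threshold is not given, so that count is not read as a result. The lowest values in Δrpl15b were those of ATG39 (-1.51) and ATG34 (-1.29), the median was -0.15, and with the replicate block ATG34 was called (-1.28, adjusted p = 0.00682). The difference of ATG34 was the lowest or next to lowest of the 31 in each of the 5 strains, all of which were compared with the same wild-type libraries.

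Several translation efficiency calls were lost when 1 library was left out. Without Ribo-seq wild-type replicate 1, Δrpl9a kept 4 calls, with ATG39 (-2.71), ATG7 (-1.34) and ATG2 (-0.97) lost, and Δrpl7a lost ATG39 (-1.83), ATG32 (-0.95), ATG5 (-0.95) and ATG19 (-0.86). Without mRNA wild-type replicate 3, Δrpl7a lost ATG39 (-2.03), ATG3 (-1.19) and ATG19 (-0.94), Δrpl9a lost ATG7 (-1.24), and Δrps27b lost ATG40 (-0.95). Without mRNA replicate 3 of Δrpl9a, 11 members were called in that strain, and without Ribo-seq replicate 2 of Δrpl6a, ATG34 was lost there (-1.99). ATG3 in Δrpl7a was lost without mRNA replicate 1 (-1.22) or 2 (-1.24) or Ribo-seq replicate 2 (-1.30) of Δrpl7a or Ribo-seq wild-type replicate 3 (-1.25), ATG19 without mRNA replicate 2 (-0.98) and ATG5 without Ribo-seq replicate 3 (-0.92) of Δrpl7a. ATG2 in Δrpl9a was lost without mRNA replicate 1 (-0.98) or 2 (-0.91) or Ribo-seq replicate 3 (-0.99) of Δrpl9a or mRNA wild-type replicate 1 (-0.93), and ATG40 in Δrps27b without its mRNA replicate 1 (-0.97). ATG39 in Δrpl7a and ATG7 in Δrpl9a were also lost without most of the other single libraries, with highest adjusted p of 0.0988 and 0.0328. Without any mRNA library numbered 3, 18 members were called in Δrpl7a and 10 in Δrpl9a. In mRNA of both strains replicates 1 and 2 were closer to each other than to replicate 3. The shares of all genes called in these settings are not given, so the larger counts are not read as a stronger result about the members. The stress genes had lower translation efficiency in the same strains, with 7 of 8 called in Δrpl7a (median -2.96), 7 of 8 in Δrpl9a (median -2.29) and 3 of 8 in Δrps27b (median -2.32). Their part in the result was not tested.

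The calls in Δrpl6a lay mostly on 1 chromosome. ATG10, ATG17, ATG23, ATG33 and ATG39 are the 5 members on chromosome XII, and 4 of them were called higher in mRNA, against 1 of the 26 members elsewhere. In footprints 2 of the 5 were called higher, against 0 of the 26. The whole chromosome stood higher in this strain. Its 468 genes had a median log2 fold change of 0.63 in mRNA, with 24.1% of them called. The 5022 genes on the other chromosomes had a median of -0.01, with 3.27% called. In footprints the medians were 0.54 and -0.04, with 21.7% of its 452 genes called, against 1.19% of 4890 others. The members followed the same division, with medians of 1.12 on chromosome XII and 0.27 elsewhere in mRNA, and 0.60 and -0.22 in footprints. The part of the whole-chromosome rise in the calls of ATG10, ATG23, ATG33 and ATG39 was not tested. ATG34, on chromosome XV, was the called member outside it.

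**Figure D4:**
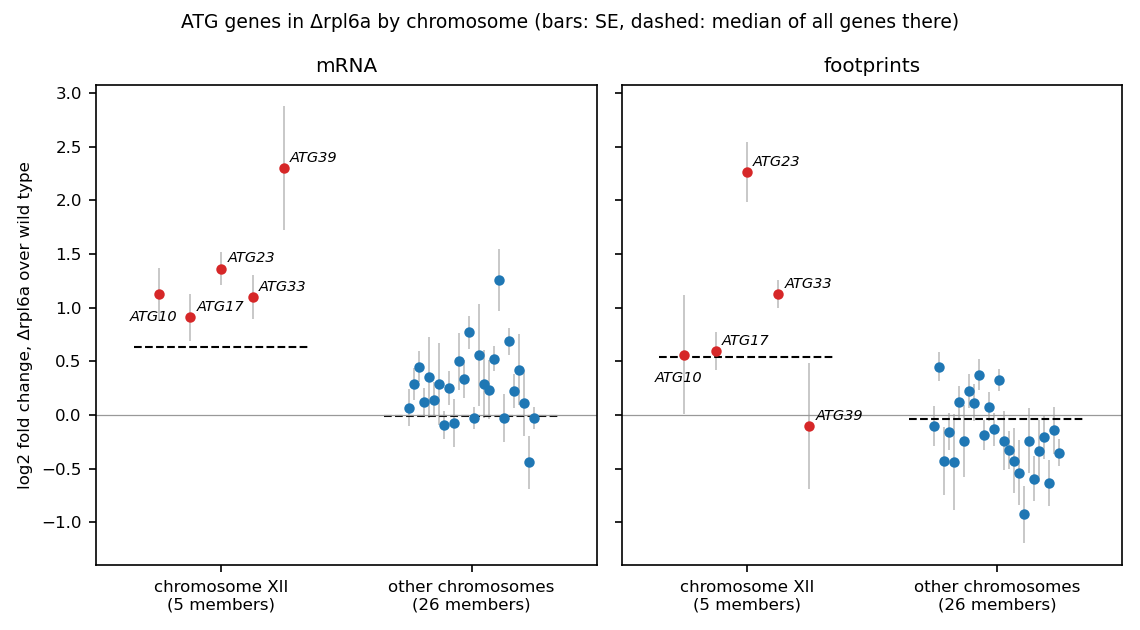
Log2 fold change in Δrpl6a against wild type, with 1 standard error, of the 5 autophagy genes on chromosome XII and the 26 on other chromosomes, for mRNA and footprints. Dashed lines mark the median of all genes in each class, 0.63 and -0.01 for mRNA and 0.54 and -0.04 for footprints.

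In each of the 3 strains with more Gcn4, the mRNA of ATG1, ATG2 and ATG13 rose. GCN4 mRNA was 3755 ± 231 CPM in PADH1-GCN4 and 5539 ± 162 CPM in S242L, against 1032 ± 107 CPM in wild type (met), and 37334 ± 4993 CPM in PGAL-GST-GCN4, against 935 ± 65.4 CPM in wild type (ura3) (SD, n = 3 each). In the deletion strains GCN4 mRNA averaged 1263 to 1710 CPM, against 1337 CPM in wild type, while its footprints were 251 ± 5.86 CPM in Δrpl7a and 93.7 ± 2.86 CPM in Δrpl9a, against 35.1 ± 4.39 CPM in wild type.

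In PADH1-GCN4 4 members rose and 0 fell, where 8.42% of all genes passed and 6.51% passed upward. The median of the 31 was -0.01, against 0.00 for all genes, and with no fold minimum 8 rose and 5 fell, against 50.2% of all genes. ATG1, the initiating kinase, had 93.5, 91.1 and 90.1 CPM in PADH1-GCN4, against 17.4, 18.6 and 20.7 CPM in wild type (met) (log2 2.27, SE 0.08, adjusted p = 3.7e-10). ATG2 had 89.3, 119 and 107 CPM in PADH1-GCN4, against 23.2, 20.8 and 22.2 CPM in wild type (met) (log2 2.26, SE 0.11, adjusted p = 5.9e-09). ATG13 (YPR185W), the regulator of the kinase and the member with the Gcn4 core at its start codon, had 132, 155 and 143 CPM in PADH1-GCN4, against 45.5, 52.2 and 44.9 CPM in wild type (met) (log2 1.59, SE 0.10, adjusted p = 8.64e-08). In all 3 the groups were wide apart. ATG15 (YCR068W), the vacuolar lipase that opens the delivered vesicle, rose by 1.03 (SE 0.15, adjusted p = 0.000161), a call lost without replicate 3 of PADH1-GCN4 (0.83) or replicate 1 (0.95) or 3 (0.99) of wild type (met). ATG8 had 15.1, 15.1 and 13.7 CPM in PADH1-GCN4, all below the 23.7, 24.2 and 22.3 CPM of wild type (met), at a log2 fold change of -0.68 (adjusted p = 0.000474) that did not reach the fold threshold. ATG39 and ATG34, the most raised members in Δrpl7a, did not pass the test here. ATG39 stood at 1.61, 3.39 and 3.15 CPM in PADH1-GCN4, against 2.21, 2.46 and 2.33 CPM in wild type (met), and ATG34 at 6.49, 6.99 and 7.02 CPM, against 8.01, 6.71 and 8.52 CPM, with overlapping groups in both.

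In S242L 3 members rose and 1 fell, where 4.26% of all genes passed, with a median of 0.03 against 0.00, and with no fold minimum 4 rose and 4 fell, against 23.8% of all genes. The 3 were ATG2 (62.1, 59.8 and 68.1 CPM, log2 1.52, SE 0.11, adjusted p = 5.57e-07), ATG1 (41.9, 41.6 and 42.7 CPM, log2 1.15, SE 0.08, adjusted p = 5.69e-07) and ATG13 (91.9, 105 and 113 CPM, log2 1.12, SE 0.10, adjusted p = 5.49e-06). Each lay between PADH1-GCN4 and wild type (met) in all libraries. ATG22 fell, with 9.33, 8.66 and 8.09 CPM in S242L, against 19.1, 14.4 and 22.2 CPM in wild type (met) (log2 -1.09, SE 0.17, adjusted p = 0.000418), a call lost without wild-type (met) replicate 3 (-0.94). PADH1-GCN4 and S242L were also compared directly. ATG1 was higher in PADH1-GCN4 by 1.12 (SE 0.08, adjusted p = 9.12e-07), the 1 member called, where 3.48% of all genes passed, with 8 higher and 3 lower without a fold minimum, against 36.9% of all genes. The libraries of S242L and PADH1-GCN4 were deposited in different tables, which share the wild type (met) columns, and the sources used here do not say whether the strains were prepared together.

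In PGAL-GST-GCN4 9 members rose and 0 fell, where 23.4% of all genes passed and 14.0% passed upward, with a median of 0.69 against -0.01 for all genes. With no fold minimum 22 rose and 2 fell, against 49.5% of all genes. ATG1 had 98.6, 194 and 147 CPM in PGAL-GST-GCN4, against 20.04, 35.4 and 20.2 CPM in wild type (ura3) (log2 2.54, SE 0.30, adjusted p = 0.00017). ATG18 (YFR021W), which binds the lipid that marks the forming membrane, had 102, 174 and 123 CPM in PGAL-GST-GCN4, against 28.2, 33.7 and 22.5 CPM in wild type (ura3) (log2 2.24, SE 0.23, adjusted p = 8.31e-05). Both were raised several fold in every library, and replicate 2 was the highest in each group for both. ATG18 had shown little change in PADH1-GCN4, at 34.7, 40.1 and 39.6 CPM, against 31.7, 33.6 and 29.1 CPM in wild type (met). ATG13 rose by 1.87 (SE 0.21, adjusted p = 0.000137), ATG2 by 1.59 (SE 0.17, adjusted p = 0.000104), ATG39 by 1.54 (SE 0.18, adjusted p = 0.000157) and ATG11, the scaffold of selective autophagy, by 1.20 (SE 0.16, adjusted p = 0.000294). ATG33 (1.19), ATG9 (1.06) and ATG32 (1.06) rose as well, and each of these 3 calls was lost without replicate 2 of PGAL-GST-GCN4 (1.11, 0.98 and 0.92), ATG33 also without its replicate 3 (1.11) and ATG33 and ATG9 without replicate 1 of wild type (ura3) (1.15 and 0.99). ATG8 had 80.3, 66.6 and 91.7 CPM in PGAL-GST-GCN4, against 80.4, 70.0 and 85.9 CPM in wild type (ura3), with fully overlapping groups and a log2 fold change of 0.01. The stress genes summed to 3814 to 5811 CPM in PGAL-GST-GCN4, against 879 to 2139.9 CPM in wild type (ura3), with 6 of 8 called higher, whereas in PADH1-GCN4 they summed to 626 to 927 CPM, against 920 to 1100 CPM in wild type (met), with 2 called lower. Their part in the results was not tested.

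**Figure D5:**
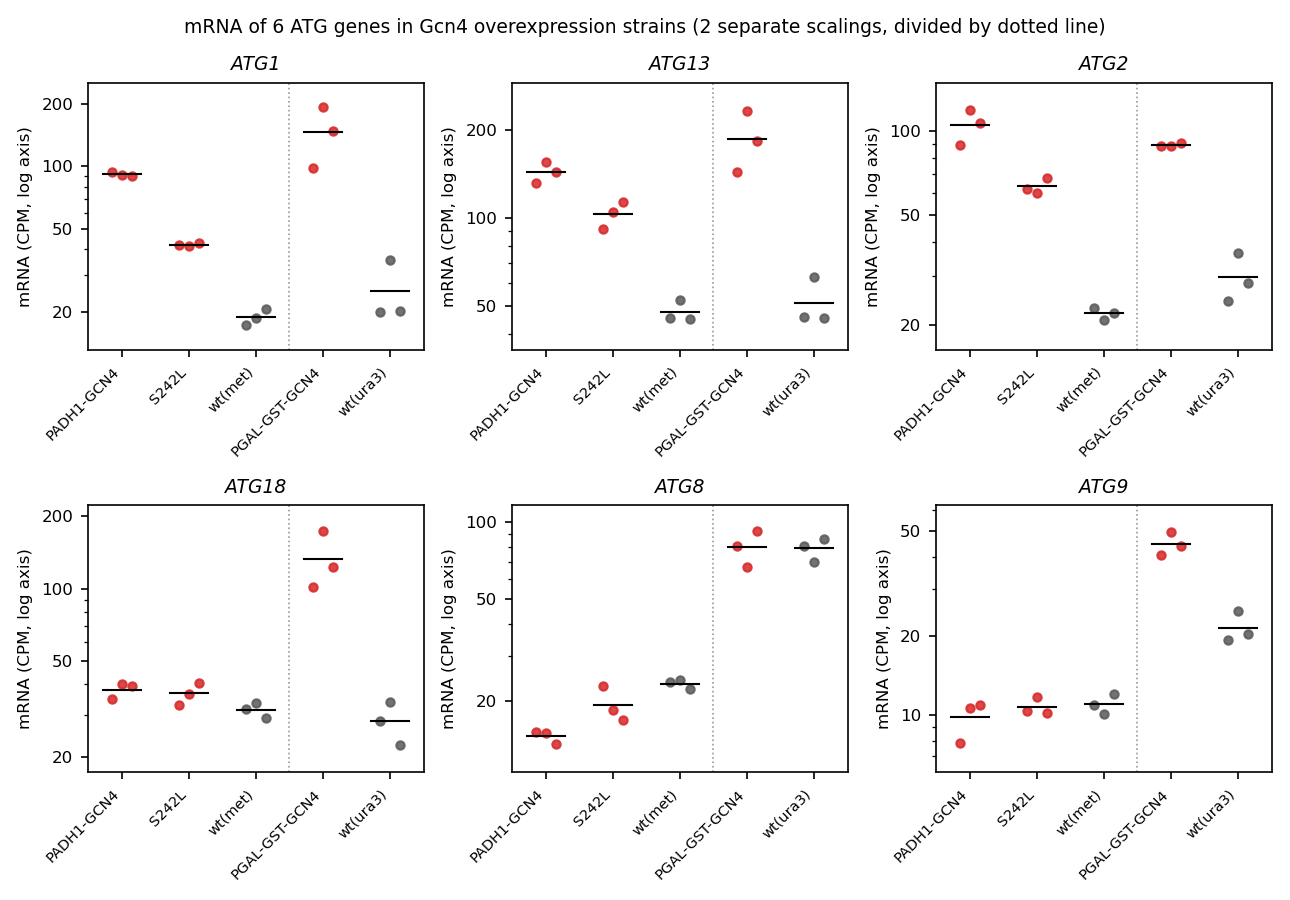
CPM on a log axis of ATG1, ATG13, ATG2, ATG18, ATG8 and ATG9 in each library of PADH1-GCN4, S242L and wild type (met), and, right of the dotted line and scaled separately, PGAL-GST-GCN4 and wild type (ura3). ATG1 stood at 90.1 to 93.5 CPM in PADH1-GCN4, against 17.4 to 20.7 CPM in wild type (met).

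ATG1, ATG2 and ATG13 were the members called higher in both PADH1-GCN4 and PGAL-GST-GCN4, which share no library. They were 75% of the 4 and 33.3% of the 9, and among all genes 292 were shared, 81.8% of 357 and 38.4% of 761. Between PADH1-GCN4 and Δrpl7a mRNA the member shared was ATG2, 25% of 4 and 7.14% of 14, and among all genes 91 were shared, 26.4% and 13.5% of the lists. Between PGAL-GST-GCN4 and Δrpl7a mRNA they were ATG9, ATG39, ATG33 and ATG2, 44.4% of 9 and 28.6% of 14, and among all genes 210 were shared, 28.4% and 31% of the lists. In Δrpl7a mRNA the log2 fold changes of ATG1, ATG2 and ATG13 were 0.56, 1.37 and 0.46.

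A wider list of 49 genes of the pathway and its surroundings, with regulators, vacuolar proteases, cargo proteins and tethering factors, was measured beside the members. It also held ATG26, ATG36 and ATG38, which are ATG genes outside the members. In mRNA 13 of the 49 (26.5%) rose and 0 fell in Δrpl7a, where 12.3% of all genes rose, with ATG41 (3.09), AMS1 (3.07) and ATG42 (2.38) at the top on the log2 scale. In Δrpl9a 7 (14.3%) rose and 0 fell, where 6.78% of all genes rose, led by ATG41 (2.49), the stress activator MSN4 (2.00) and AMS1 (1.55). In Δrpl6a 4 (8.16%) rose, where 3.99% of all genes did, and in Δrps27b 1 (2.04%) was called, where 5.54% of all genes were. Of the 4 in Δrpl6a, ATG38 (1.12) and VPS33 (1.11) lie on chromosome XII, which stood higher as a whole there, with 24.1% of its genes called. The part of that rise was not tested. AMS1 encodes α-mannosidase, the cargo of Atg19 and Atg34. Its translation efficiency fell by 4.99 in Δrpl7a, 3.95 in Δrpl9a, 2.98 in Δrpl6a and 3.93 in Δrps27b, and its footprints fell by 1.94, 2.40 and 3.76 in Δrpl7a, Δrpl9a and Δrps27b. In translation efficiency 0 of the 49 rose in these strains. In Δrpl7a 12 (24.5%) fell, where 10.1% of all genes did, in Δrpl9a 8 (16.3%), where 7.03% did, and in Δrps27b 4 (8.16%), where 4.44% did. In Δrpl6a 1 (2.04%) was called, where 2.39% of all genes were. In the strains with more Gcn4, 6 of the 49 (12.2%) rose in PADH1-GCN4, where 6.51% of all genes did, 12 (24.5%) rose in PGAL-GST-GCN4, where 14.0% did, and 2 (4.08%) were called in S242L, where 4.26% of all genes were. ATG41, needed for the movement of Atg9 under starvation, was among them in each, at 3.31 in PADH1-GCN4, 3.46 in S242L and 3.04 in PGAL-GST-GCN4, and VPS41, of the tethering complex at the vacuole, rose by 2.08 in PADH1-GCN4 and 4.17 in PGAL-GST-GCN4.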

How the data were processed

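Messenger RNA of all strains and ribosome footprints of the deletion strains were taken as the counts of reads per gene that the authors deposited. According to the study's methods, reads were mapped to the yeast transcriptome with segemehl, uniquely mapped reads were counted, and Ribo-seq counts were limited to coding regions. Ribo-seq cells were treated with cycloheximide. The submitters' processing notes also name the build sacCer3 and DESeq2. The use of strand in counting is not stated there. ATG29 overlaps SET6 on the opposite strand, so its value is uncertain. Of the per-sample columns, 0 were left unused. Tables that hold only the authors' own fold changes between strains were not used. The wild type (met) columns occur in 2 tables with identical values and were used once. Replicates of a group differed beyond sampling noise, with a lowest chi-square per gene of 3.14.

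Counts were scaled by TMM after filterByExpr and tested with the quasi-likelihood F-test of edgeR 4.0.16 (R 4.3.3, limma 3.58.1), two-sided, with Benjamini-Hochberg adjustment over all genes tested. A call needed an adjusted p below 0.01 and more than 2-fold. The deletion strains and wild type entered 1 fit per assay, PADH1-GCN4, S242L and wild type (met) another, and the plasmid strains one of their own. Translation efficiency was tested as an interaction over both assays, each scaled by itself. SE is that of the log2 fold change, SD is over libraries, and CPM use the same scaling. Intervals and errors do not cover differences in yield between PCR products. The tests were checked on simulated data. Figures were drawn with matplotlib 3.10.9.

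The members, the 49 pathway genes and the 8 stress genes (HSP12, HSP26, CTT1, HSP104, HSP42, TPS1, DDR2 and GAD1) were chosen with earlier results of these data known. All 31 members were matched by identifier to RefSeq. Any member could be named. Values per library were to be given for ATG1, ATG8, ATG9 and at most the 12 called members with the largest absolute log2 fold change. The pathway genes named were at most the 3 called with the largest change in a comparison. ATG26, ATG36 and ATG38 were named besides these, as ATG genes outside the 31, and VPS33 for its place on chromosome XII. Library values of ATG22, ATG33 and ATG40 were added after theirs were seen. Replicate numbers were taken to pair libraries where all same-numbered pairs deviated together, with correlations of 0.174 to 0.599 in mRNA of the deletion strains and 0.365 to 0.431 in the plasmid strains, but -0.108 to 0.135 in Ribo-seq. The alternatives tried were DESeq2 1.42.0, scaling by the median of ratios, testing without a count filter, a replicate block, a fit of the compared groups alone, no fold minimum, each library left out and, added after the data were seen, all mRNA libraries numbered 3 left out.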

Additional observations from a re-analysis of the deposited data

Results flagged for a closer look

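In mRNA, 4 members differed between the long-lived strains (Δrpl7a and Δrpl9a) and the short-lived strains (Δrpl6a, Δrpl15b and Δrps27b) by a test of the difference itself: ATG39 by 2.00, ATG8 by 1.33, ATG29 by 1.12 and ATG14 by 1.03 on the log2 scale, all higher in the long-lived strains. In footprints the mean of ATG40 was higher in the long-lived strains by 1.10, though Δrpl9a overlapped wild type, at 7.95 to 10.6 CPM against 8.56 to 10.4 CPM. Between PADH1-GCN4 and S242L the effect on ATG1 differed by 1.12, higher in PADH1-GCN4. These values and their libraries are given in the report, and their causes were not tested.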

How the results depend on the processing

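Of 85 calls of single members, 50 were kept under every alternative and 35 were lost under at least 1, and 0 reversed. Counts of called members under the other settings were within 1.5 times those reported in 97 cases, higher in 26 and lower in 5. Apart from the looser threshold, shares of all genes are not given for these settings. Higher counts there are therefore not read as a stronger result about the members. With an adjusted p below 0.05 and no fold minimum they were 14, 10, 1 and 6 for mRNA in Δrpl9a, Δrpl6a, Δrpl15b and Δrps27b, 10, 9, 7 and 18 for footprints in Δrpl7a, Δrpl9a, Δrpl6a and Δrps27b, 22, 14, 5 and 12 for translation efficiency in the same strains, 21 (mRNA) and 11 (footprints) for long-lived against short-lived strains, and 13, 8, 11 and 24 for PADH1-GCN4, S242L, PADH1-GCN4 against S242L and PGAL-GST-GCN4. With the replicate block or pairing, 2 members were called for mRNA in Δrpl15b, 1 for footprints in Δrpl7a, 1 for translation efficiency in Δrpl15b and 8 in Δrps27b, and it added ATG29 to the mRNA of Δrpl9a, ATG29 and ATG14 to translation efficiency in Δrpl7a and ATG29 in Δrpl9a. In Ribo-seq, PADH1-GCN4 and S242L the libraries share only a number. With DESeq2, 7 were called for translation efficiency in Δrps27b and 2 for footprints of long-lived against short-lived strains. With only the compared groups in the fit, 3 were called for mRNA in Δrpl6a and 1 for footprints in Δrpl7a. Without the members on chromosome XII, 1 was called for mRNA and 0 for footprints in Δrpl6a. Without the mRNA libraries numbered 3, chosen after seeing the data, 2, 7 and 10 were called for mRNA in Δrpl15b, mRNA in Δrpl9a and translation efficiency in Δrps27b. With 1 library left out, counts ranged over 1 to 7 for mRNA in Δrpl9a, 2 to 5 in Δrpl6a and 2 to 7 for long-lived against short-lived strains, over 0 to 3, 1 to 3 and 1 to 2 for footprints in Δrpl7a, Δrpl9a and long-lived against short-lived strains, and over 4 to 11 and 1 to 3 for translation efficiency in Δrpl9a and Δrpl6a. Leaving out a Δrpl6a Ribo-seq library left 1, assumed to vary like the other groups. The low counts of ATG39 and ATG10 limit their fold changes.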

Other observations

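The wild type (ura3) libraries, which carried a plasmid, held more mRNA of some members than the wild type of the deletion strains. ATG8 stood at 70.0 to 85.9 CPM in wild type (ura3), against 16.2 to 25.4 CPM in wild type, and ATG34 at 40.1 to 50.04 CPM, against 5.13 to 7.69 CPM. The medium of the plasmid strains is not stated in the sources used here, so plasmid and medium cannot be told apart. The tables were scaled separately and the difference was not tested.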
